A study of Homo sapiens with 3 samples.

Results

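The 10 genes described here encode the heat shock transcription factor HSF1 and 9 chaperones or co-chaperones outside the HSP70 family that are known as its targets: HSP90AA1, HSP90AB1, HSPH1, HSPB1, HSPD1, HSPE1, DNAJB1, DNAJB4 and BAG3. They were chosen by gene symbol, each symbol matched 1 row, and they make up 10 of the 57268 rows of a table of RNA sequencing read counts. All 10 had a mean level of 1 or more CPM (reads per 1000000 of the scaled library), as did 16072 genes in all. The cells were HEK 293T, a human embryonic kidney line, by their cell line label, while the sample titles give HEK293, the line it derives from. In all, 1 library was sequenced for each of 3 groups. The first group overexpressed ADAR2, an enzyme that converts adenosine to inosine in double-stranded RNA, together with the splicing factor SRSF9. The second overexpressed ADAR2 alone, and the third, the control, was the wild-type line without overexpression. Whether the control received an empty vector, and how the proteins were expressed, is not given in the labels. By its design text, the series is about the influence of SRSF9 on editing by ADAR2, whereas the counts give transcript levels.

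Chaperones bind unfolded proteins and help them reach or keep their folded state. In unstressed cells HSF1 is held inactive in complexes that contain chaperones such as HSP90. When unfolded proteins draw the chaperones away, HSF1 forms trimers, binds heat shock elements, which are inverted repeats of the letters GAA spaced by 2 bases, and raises transcription of chaperone genes. Stress-inducible targets such as HSPA6 are nearly silent without stress, while HSP90AB1 and HSPD1 are made at high level in growing cells.

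The libraries held 97875935, 132887974 and 152878282 reads in ADAR2+SRSF9, ADAR2 and control. The overexpressed genes followed the labels, with ADARB1 (ADAR2) at 13647, 16100.0 and 113.6 CPM and SRSF9 at 18288, 369 and 372 CPM in that order. All 10 HEK293 marker genes tested were measured, with summed levels of 1039 to 1170 CPM. Of 16 markers of blood, liver, fibroblast, endothelial, keratinocyte and muscle cells 15 were in the table, and of these COL1A1 and ACTA1 alone reached 1 CPM, while MS4A1 and KRT5 had 0 reads. Their summed level was 41.5, 35.9 and 37.0 CPM in the same order of libraries. Each library that carried overexpression stood apart in a few rows. HBB and HBD were at 383 and 946 CPM in ADAR2+SRSF9 but below 4 CPM in the other libraries. RN7SK was at 1.88 CPM in ADAR2, against 43.3 CPM in ADAR2+SRSF9 and 22.3 CPM in control. With HBB, HBD, ADARB1, SRSF9 and the mitochondrial genes left out of library sizes, the count of the 10 genes at 1.5-fold was 0 in each comparison, as below. In bulk RNA, fewer cells that express a gene and less of its RNA per cell cannot be told apart. With 1 library per group no difference below has a replicate check and no p-value is given. Intervals are 95% counting intervals and cover counting error only, and the library and its group cannot be told apart.

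The promoter table of RefSeq (GRCh38.p14) matched 9 of the 10 genes, with 16 windows of 300 bases that run from 250 bases before an annotated start to 50 after it. The windows were searched for pairs of facing GAA units, GAANNTTC or TTCNNGAA, and for runs of 3 units, in which the first of these is followed by NNGAA or the other by NNTTC. Each pair is its own reverse complement and each run is the reverse complement of the other, so both strands are covered, and every run contains 2 overlapping pairs. A run was present in 3 of the 9 genes, HSP90AA1, HSP90AB1 and HSPD1, against 0.608% of the 27305 genes in the table. A pair was present in 6 of the 9, the same 3 with HSPB1, DNAJB1 and DNAJB4, against 16.2% of genes, and genes with several starts had more windows to hold one. The 250 bases before the start are shown for these 6 genes because heat shock elements are the sites HSF1 is known to bind. Capitals mark the pairs and runs.
HSP90AA1 (chr14:102087045-102087294, minus strand): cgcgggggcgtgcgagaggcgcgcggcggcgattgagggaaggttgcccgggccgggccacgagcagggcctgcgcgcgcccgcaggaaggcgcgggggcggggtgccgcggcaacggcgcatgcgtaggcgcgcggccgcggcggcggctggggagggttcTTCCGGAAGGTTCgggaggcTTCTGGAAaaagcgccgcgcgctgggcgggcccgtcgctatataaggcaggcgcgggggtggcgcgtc
HSP90AB1 (chr6:44247693-44247942, plus strand): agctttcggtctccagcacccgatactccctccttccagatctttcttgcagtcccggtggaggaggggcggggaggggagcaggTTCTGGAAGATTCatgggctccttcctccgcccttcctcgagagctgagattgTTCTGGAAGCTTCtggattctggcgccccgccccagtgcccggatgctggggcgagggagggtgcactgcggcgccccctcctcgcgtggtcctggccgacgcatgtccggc
HSPB1 (chr7:76302423-76302672, plus strand): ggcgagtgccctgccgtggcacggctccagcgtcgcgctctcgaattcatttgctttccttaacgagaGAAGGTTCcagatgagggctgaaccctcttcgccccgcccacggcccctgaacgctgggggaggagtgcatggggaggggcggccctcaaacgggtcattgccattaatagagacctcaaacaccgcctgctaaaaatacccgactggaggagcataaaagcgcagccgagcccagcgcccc
HSPD1 (chr2:197499841-197500090, minus strand): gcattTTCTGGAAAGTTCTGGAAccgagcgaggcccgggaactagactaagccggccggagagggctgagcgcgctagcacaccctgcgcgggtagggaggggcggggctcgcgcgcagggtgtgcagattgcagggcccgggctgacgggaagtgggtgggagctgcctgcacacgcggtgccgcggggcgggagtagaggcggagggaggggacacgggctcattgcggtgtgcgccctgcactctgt
DNAJB1 (chr19:14518398-14518647, minus strand): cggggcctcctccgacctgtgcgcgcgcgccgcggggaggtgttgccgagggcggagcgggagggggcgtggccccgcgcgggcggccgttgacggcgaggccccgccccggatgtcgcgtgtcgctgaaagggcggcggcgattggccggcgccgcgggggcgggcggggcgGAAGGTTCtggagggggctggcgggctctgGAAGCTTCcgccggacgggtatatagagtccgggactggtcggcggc
DNAJB4 (chr1:78004689-78004938, plus strand): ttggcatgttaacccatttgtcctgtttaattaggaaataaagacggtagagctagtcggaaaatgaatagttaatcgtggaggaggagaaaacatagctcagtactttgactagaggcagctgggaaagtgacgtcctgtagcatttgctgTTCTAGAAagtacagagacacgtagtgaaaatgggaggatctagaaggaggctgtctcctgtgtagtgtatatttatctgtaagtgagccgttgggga

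HSP90AB1 held its 2 runs 165 and 112 bases before the start. HSP90AA1 held a run of 3 units at 88 bases and a further pair at 68. HSPD1 held 4 alternating units in 18 bases, 245 bases before an inner start. DNAJB1 held pairs at 77 and 47 bases, HSPB1 1 pair at 182 and DNAJB4 1 pair at 98. A further DNAJB1 pair began 1 base after another annotated start, outside the stretches shown. In the windows of HSPH1, BAG3 and HSPE1 these exact letters were not found. That says nothing of other stretches, or of elements that differ from these letters. The HSPE1 window, on the plus strand, shared 204 bases with the window of the outer HSPD1 start on the minus strand, since these genes lie head to head.

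Levels between genes are compared per length, as TPM (reads per kilobase of merged exons, scaled to a sum of 1000000 over genes with a length). HSP90AB1, the constitutive cytosolic HSP90, was highest of the 10 at 1935 TPM in ADAR2+SRSF9, 1909 in ADAR2 and 2008 in control. HSP90AA1, the inducible cytosolic HSP90, was next at 984, 962 and 1035 TPM, followed by HSPD1, the HSP60 subunit of the mitochondrial chaperonin, at 933, 907 and 964 TPM. With the longest transcript as the length, chosen after the data were seen, HSPD1 came before HSP90AA1, at 1221, 1204 and 1283 TPM against 1113, 1104 and 1191 TPM. These 3 genes held 90.6% of the reads of the 10 in ADAR2+SRSF9, 89.7% in ADAR2 and 91.4% in control. All 10 together took 0.570%, 0.570% and 0.600% of the reads of the libraries.

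The small heat shock protein gene HSPB1 followed at 191, 210 and 153 TPM in ADAR2+SRSF9, ADAR2 and control. HSPE1, the HSP10 lid of the mitochondrial chaperonin, stood at 89.0, 84.0 and 82.9 TPM, and DNAJB1, the cytosolic HSP40 that delivers substrates to HSP70, at 63.9, 77.5 and 60.9 TPM. With the longest transcript as the length, HSPE1 was at 140, 134 and 133 TPM, against 162, 181 and 132 TPM for HSPB1. By that length HSPE1 and HSPB1 were nearly equal in control. HSPH1, the HSP110 nucleotide exchange factor of HSP70, was at 50.1, 51.2 and 50.9 TPM, beside HSF1 at 49.0, 51.3 and 43.2 TPM. In the ADAR2 library these last 2 levels lay within each other's counting error. BAG3, a co-chaperone that links HSP70 to autophagy of damaged proteins, had 39.4, 45.8 and 40.7 TPM. DNAJB4, another cytosolic HSP40, was lowest at 10.5, 13.0 and 15.8 TPM.

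**Figure D1:**
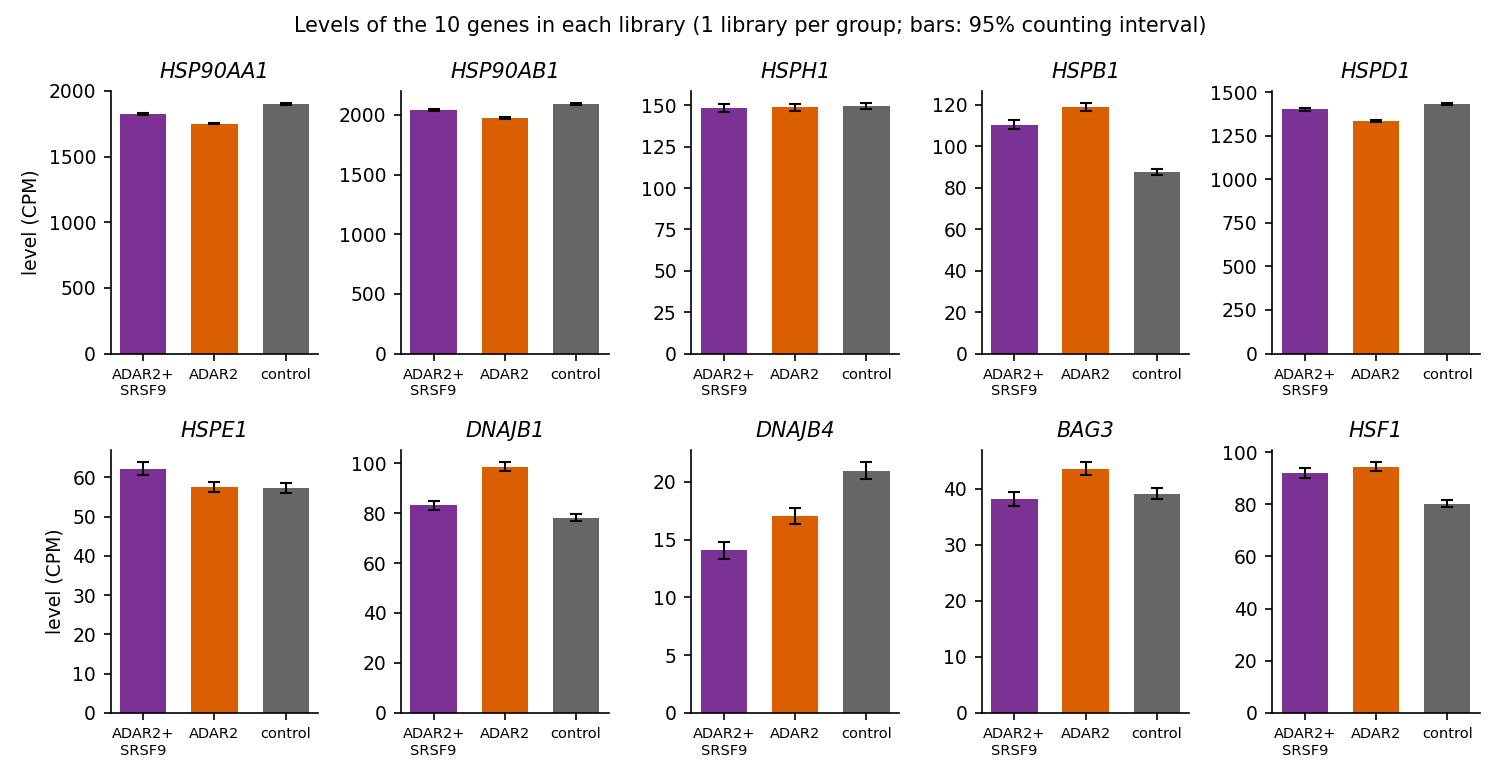
Level of each gene in CPM (linear axis from 0, a scale of its own in each panel) in the ADAR2+SRSF9, ADAR2 and control libraries, 1 library per group, with 95% counting intervals. HSPB1 and HSF1 were lower in control than in the libraries with overexpression. DNAJB1, BAG3, HSPB1 and, by a small margin, HSF1 were highest in ADAR2, and DNAJB4 was lowest in ADAR2+SRSF9.

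The HSP90 genes and HSPH1 were at nearly the same level in all 3 libraries. HSP90AA1 had 175125 reads in ADAR2+SRSF9, 235126 in ADAR2 and 293630 in control, or 1827, 1751 and 1901 CPM. It was at 0.921 times the control level in ADAR2 (0.916 to 0.926) and at 1.04 times the ADAR2 level in ADAR2+SRSF9 (1.04 to 1.05). HSP90AB1 had 195623, 264888 and 323375 reads, or 2041, 1973 and 2093 CPM. It stood at 0.943 times (0.938 to 0.947) in ADAR2 over control and 1.03 times (1.03 to 1.04) in ADAR2+SRSF9 over ADAR2. Both genes were lowest in ADAR2 and highest in control, by differences far smaller than 1.2-fold.

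The ratio of HSP90AA1 to HSP90AB1 reads, which no scaling of libraries can move, was 0.895 in ADAR2+SRSF9 (0.889 to 0.901), 0.888 in ADAR2 (0.883 to 0.893) and 0.908 in control (0.903 to 0.913). The inducible and the constitutive HSP90 thus kept close to 1 proportion. That ratio is not corrected for GC content, which was 45.2% for HSP90AA1 and 48.1% for HSP90AB1. Relative to the median of protein-coding genes of like GC content, HSP90AA1 was at 0.9725 and HSP90AB1 at 0.960 times the control in ADAR2. In ADAR2+SRSF9 over control HSP90AA1 was then at 1.01 and HSP90AB1 at 0.991 times. HSPH1 had 14248, 19999 and 23094 reads, or 148.6, 149.0 and 149.5 CPM, in ADAR2+SRSF9, ADAR2 and control. Its ratios were 0.996 (0.978 to 1.02) in ADAR2 over control and 0.998 (0.976 to 1.02) in ADAR2+SRSF9 over ADAR2, and both intervals held 1. Genes of its GC content had a median ratio of 0.910 in ADAR2 over control, so HSPH1 lay above 90.5% of the 9594 protein-coding genes with 10 or more CPM once that trend was removed.

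The mitochondrial chaperonin genes were likewise close to level. HSPD1 had 134388, 179268 and 221210 reads, or 1402, 1335 and 1432 CPM, in ADAR2+SRSF9, ADAR2 and control. It was at 0.933 times (0.927 to 0.938) in ADAR2 over control and 1.05 times (1.04 to 1.06) in ADAR2+SRSF9 over ADAR2. HSPE1 had 5970, 7728 and 8853 reads, or 62.3, 57.6 and 57.3 CPM. It was at 1.004 times (0.974 to 1.04) in ADAR2 over control, where the interval held 1, and at 1.08 times (1.05 to 1.12) in ADAR2+SRSF9 over ADAR2. Before any account of GC content, HSPE1 was highest in ADAR2+SRSF9, and HSPD1 in control.

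The ratio of HSPD1 to HSPE1 reads was 22.5 in ADAR2+SRSF9 (21.9 to 23.1), 23.2 in ADAR2 (22.7 to 23.7) and 24.99 in control (24.5 to 25.5). Per length HSPD1 stood at 10.5, 10.8 and 11.6 times the level of HSPE1. These ratios are not corrected for GC content, which was 44.2% for HSPD1 and 50.2% for HSPE1. With the GC trend removed, HSPD1 was at 0.992 and HSPE1 at 0.9997 times the control in ADAR2. In ADAR2+SRSF9 over control HSPD1 was then at 1.04 and HSPE1 at 1.08 times. The level of HSPE1 is uncertain, because the readthrough gene HSPE1-MOB4, which overlaps its exons on the same strand, is listed with 0 reads in all 3 libraries, and exons of HSPD1 and HSPE1 overlap on opposite strands. How reads shared by overlapping genes were assigned is not stated in the labels.

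HSPB1, the small heat shock protein HSP27 that holds unfolded proteins and stabilises actin filaments, was the furthest of the 10 from the control in ADAR2. It had 10581 reads in ADAR2+SRSF9, 15973 in ADAR2 and 13527 in control, or 110.4, 119.0 and 87.6 CPM. Its level in ADAR2 was 1.36 times the control (1.33 to 1.39), above 98.3% of the 16072 genes. In ADAR2+SRSF9 it was 0.928 times the ADAR2 level (0.905 to 0.951) and 1.26 times the control (1.23 to 1.29). The control was thus the low library for HSPB1. Its transcript has a GC content of 64.3%, and protein-coding genes of that content had a median ratio of 1.14 in ADAR2 over control, which leaves 1.197 for HSPB1. In ADAR2+SRSF9 over control, where that median was 1.19, 1.06 was left. In ADAR2+SRSF9 over ADAR2 the median was 1.05 and 0.881 was left, below 96.3% of protein-coding genes.

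DNAJB1 was highest in the ADAR2 library. It had 7965, 13251 and 12090 reads, or 83.1, 98.7 and 78.3 CPM, in ADAR2+SRSF9, ADAR2 and control. It was at 1.26 times the control in ADAR2 (1.23 to 1.29) and at 0.842 times the ADAR2 level in ADAR2+SRSF9 (0.819 to 0.866), which left it at 1.06 times the control there (1.03 to 1.09). The first 2 ratios have the ADAR2 library in common, once on top and once as the divisor. The GC content of DNAJB1 was 53.0%. Once the GC trend was taken out, it stood at 1.21 times in ADAR2 over control, above 99.4% of protein-coding genes, and at 0.834 times in ADAR2+SRSF9 over ADAR2, below 98.96% of them. The exons of DNAJB1 overlap those of TECR on the opposite strand, which had 11382, 15838 and 17315 reads.

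Like DNAJB1, HSPB1 and, by a small margin, HSF1, BAG3 was highest in the ADAR2 library. The levels of BAG3 in ADAR2+SRSF9 and control lay close together before any account of GC content. It had 3669, 5859 and 6048 reads, or 38.3, 43.6 and 39.1 CPM, in ADAR2+SRSF9, ADAR2 and control. It was at 1.11 times (1.08 to 1.16) in ADAR2 over control, at 0.877 times (0.841 to 0.914) in ADAR2+SRSF9 over ADAR2, and at 0.978 times (0.938 to 1.02) in ADAR2+SRSF9 over control. With the GC trend removed the first of these was 1.03, above 69.6% of protein-coding genes. The second was 0.859, below 97.7% of them, and the third 0.892, below 91.8%.

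DNAJB4 was below the control in both libraries with overexpression, where DNAJB1 was above it. It had 1348 reads in ADAR2+SRSF9, 2290 in ADAR2 and 3239 in control, or 14.1, 17.1 and 20.97 CPM. It was at 0.814 times the control in ADAR2 (0.771 to 0.859), at 0.824 times the ADAR2 level in ADAR2+SRSF9 (0.770 to 0.882), and at 0.671 times the control there (0.629 to 0.715). The 3 libraries thus formed a descending order, ADAR2+SRSF9 below ADAR2 and ADAR2 below control. The transcript is AT-rich, with 33.1% GC, and with the GC trend removed the ratios were 0.915, 0.828 and 0.758, the last below 99.7% of protein-coding genes. The ratio of DNAJB1 to DNAJB4 reads within a library was 5.91 in ADAR2+SRSF9 (5.58 to 6.26), 5.79 in ADAR2 (5.53 to 6.05) and 3.73 in control (3.59 to 3.88), so these co-chaperones of HSP70 stood in a different proportion in the control than in the other libraries. That ratio is not corrected for GC content, which was 53.0% for DNAJB1. GIPC2, which overlaps DNAJB4 on the same strand, had 2, 11 and 7 reads.

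HSF1 itself had 8817 reads in ADAR2+SRSF9, 12683 in ADAR2 and 12400 in control, or 91.97, 94.5 and 80.3 CPM. It was at 1.18 times the control in ADAR2 (1.15 to 1.21), at 0.974 times the ADAR2 level in ADAR2+SRSF9 (0.947 to 1.0005, an interval that holds 1), and at 1.15 times the control there (1.11 to 1.18). Its transcript is the most GC-rich of the 10 at 64.7%, and genes of that content had median ratios of 1.14, 1.06 and 1.19 in these comparisons. Relative to them HSF1 was at 1.04, 0.923 and 0.960 times. The sign of ADAR2+SRSF9 over control thus turned with the GC trend removed, as it did for HSP90AA1, HSPD1 and HSPH1. The exons of HSF1 overlap those of DGAT1 on the opposite strand, with 5162, 6578 and 6854 reads. HSF1 is regulated chiefly as a protein, by release from chaperones and by phosphorylation, which these counts do not show.

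**Figure D2:**
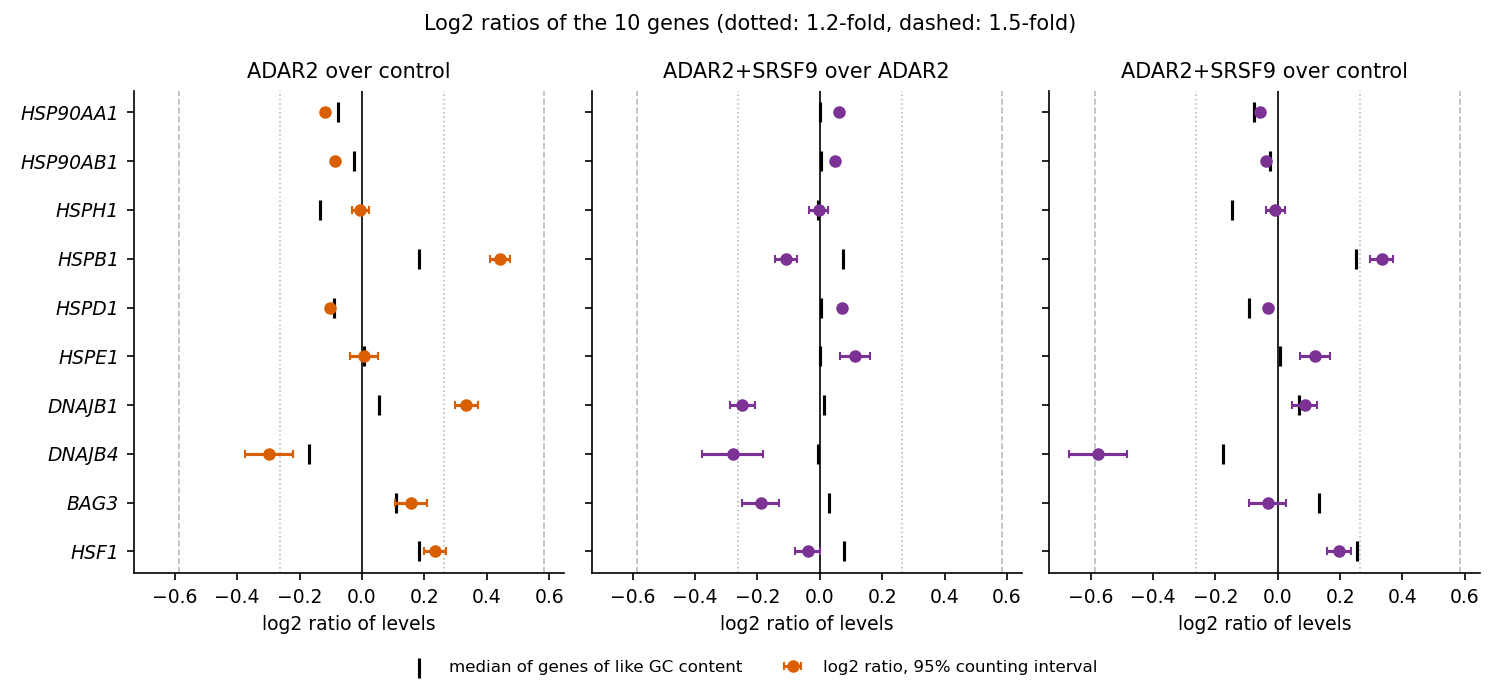
Log2 ratio of the level of each gene (points) with its 95% counting interval in 3 comparisons, 1 library per group. Black ticks give the median log2 ratio of protein-coding genes of like GC content. HSPB1 at 0.44 and DNAJB1 at 0.33 lay beyond the dotted 1.2-fold line in ADAR2 over control, and DNAJB4 at -0.30, -0.28 and -0.58 lay beyond it on the lower side in all 3 comparisons.

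No member of the 10 was at 1.5-fold or more, with an interval that excluded 1, in any of the 3 comparisons. In ADAR2 over control 0 were higher and 0 lower, where 0.622% and 0.641% of the 16072 genes were. The counts were 0 and 0 in ADAR2+SRSF9 over ADAR2, against 0.871% higher and 2.52% lower genes, and in ADAR2+SRSF9 over control 0 and 0, against 1.56% and 2.43%. With plain library totals DNAJB4 passed 1.5-fold in that last comparison, at a log2 ratio of -0.62, and the share of higher genes among all past 1.5-fold was 26.6% in place of 39.0%.

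At 1.2-fold 2 of the 10 were higher in ADAR2 than in control, HSPB1 and DNAJB1, and 1 was lower, DNAJB4. The same held for 7.43% and 6.45% of all genes. Relative to ADAR2, 0 were higher in ADAR2+SRSF9 and 1 was lower, DNAJB4, against 5.72% and 8.21% of genes, with DNAJB1 just inside the line at a log2 ratio of -0.25. Relative to control, 1 was higher in ADAR2+SRSF9, HSPB1, and 1 lower, DNAJB4, against 13.8% and 12.7% of genes.

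The median log2 ratio of the 10 was 0.0007 in ADAR2 over control, beside -0.0009 for all genes. It was -0.02 in ADAR2+SRSF9 over ADAR2, beside 0.01 for all genes, and in ADAR2+SRSF9 over control -0.02, beside -0.01. As a list the 10 genes therefore lay close to the middle of all genes, with single members on either side.

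The ratios against the control moved with GC content across the whole table. In ADAR2 over control the median log2 ratio was -0.17 in the tenth of genes with the lowest GC content, whose median content was 36.8%, and 0.18 in the tenth with the highest, at 63.8%. With that trend removed DNAJB1 alone of the 10 was higher by 1.2-fold in ADAR2, as were 0.896% of the 9594 protein-coding genes, and 0 were lower, where 0.876% were. DNAJB4 was the 1 lower member in ADAR2+SRSF9 over ADAR2 and 0 were higher, where 1.02% of genes were lower and 0.605% higher. DNAJB4 was again the 1 lower member in ADAR2+SRSF9 over control and 0 were higher, where 2.06% were lower and 2.4% higher. HSPB1, at 1.197 in ADAR2 over control, was just short of 1.2-fold in that reckoning. At 1.5-fold 0 of the 10 were called with the trend removed. The shares of genes were then 0.0208% higher and 0.0104% lower in ADAR2 over control, 0.0417% and 0.0625% in ADAR2+SRSF9 over ADAR2, and 0.0521% and 0.0208% in ADAR2+SRSF9 over control.

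**Figure D3:**
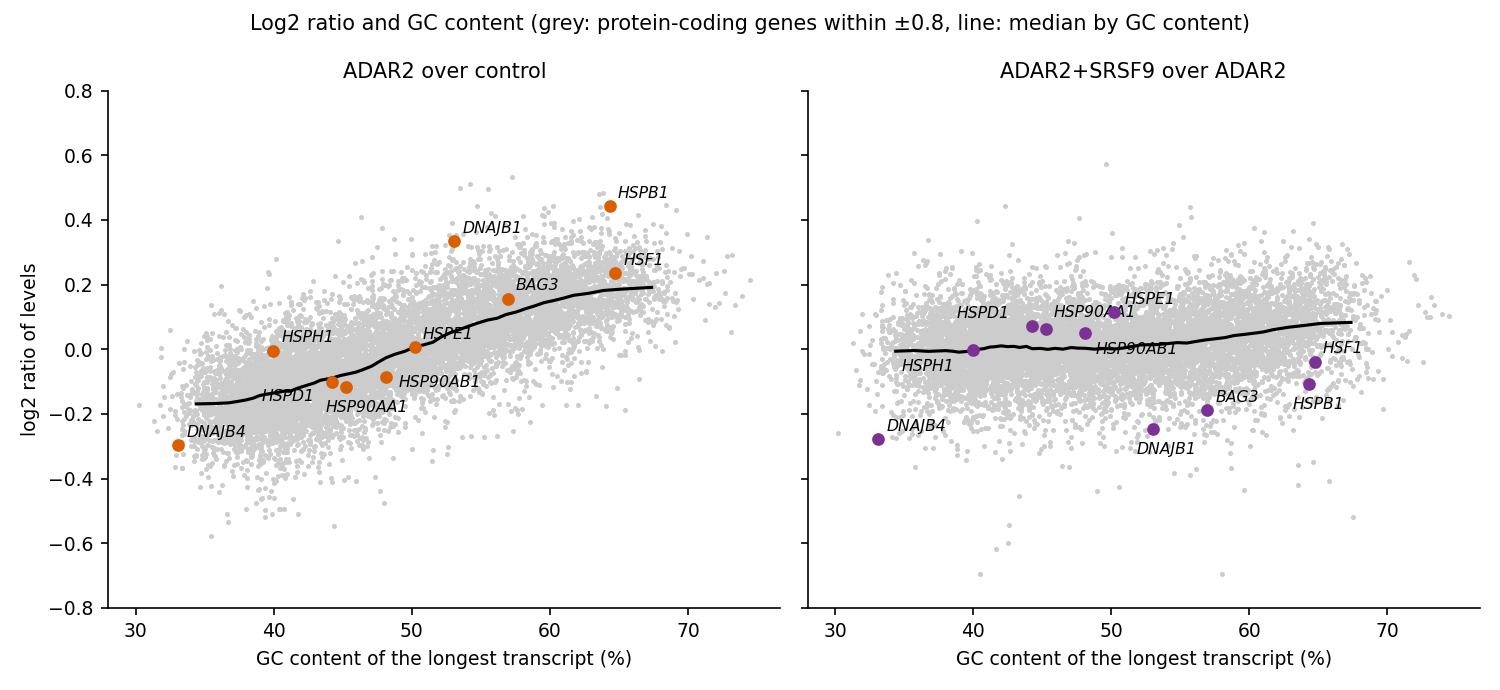
Log2 ratio of levels against the GC content of the longest transcript. Grey points are protein-coding genes with 10 or more CPM with the axis cropped, the black line is their median by GC content, and coloured points are the 10 genes. In the ADAR2 over control panel the line climbs with GC content, and DNAJB1, HSPB1 and HSPH1 lie furthest above it. In the other panel DNAJB4, DNAJB1, BAG3, HSPB1 and HSF1 lie below it.

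The 5 protein-coding genes whose pair of log2 ratios (ADAR2 over control, ADAR2+SRSF9 over ADAR2) lay nearest to that of HSPB1, among 9593 searched over the 3 libraries, were CLDN15, PCSK7, MOB2, UAP1L1 and CTSF. Their distances were 0.032 to 0.055 on the log2 scale. CLDN15, a claudin of tight junctions, was at 0.44 and -0.08, beside 0.44 and -0.11 for HSPB1. PCSK7 encodes a proprotein convertase and CTSF a lysosomal cysteine protease. The GC content of 4 of them lay between 60.1% and 62.1%, and that of PCSK7 was 46.3%.

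Other genes of the response give the setting. The counts at 1.5-fold in the lists below stand beside the shares of all 16072 genes. These were 0.622% higher and 0.641% lower in ADAR2 over control. They were 0.871% and 2.52% in ADAR2+SRSF9 over ADAR2, and 1.56% and 2.43% in ADAR2+SRSF9 over control. Of the HSP70 family 15 of 16 genes were measured, and 2 were higher by 1.5-fold in ADAR2 over control and in ADAR2+SRSF9 over control, with 0 lower. They were HSPA6, an HSP70 made almost only under stress, and its neighbour HSPA7, a close copy whose reads may be shared with it. HSPA6 had 1410 reads in ADAR2+SRSF9, 1947 in ADAR2 and 158 in control, or 14.7, 14.5 and 1.02 CPM. HSPA7 had 298, 359 and 38 reads, or 3.11, 2.67 and 0.246 CPM. Its mean thus reached 1 CPM only through the libraries with overexpression. With a filter of 10 CPM HSPA7 is left out, and 1 family gene, HSPA6, was at 1.5-fold in each comparison with the control. The family median was -0.05 in ADAR2 over control, and HSPA2, a testis-enriched HSP70, was lowest at -0.24. At 1.2-fold 4 family genes were higher and 0 lower in ADAR2 over control, and 4 higher and 1 lower in ADAR2+SRSF9 over control. Of all genes 7.43% were higher and 6.45% lower at 1.2-fold in ADAR2 over control. In ADAR2+SRSF9 over control the shares were 13.8% and 12.7%. The lower family gene there was HSPA13, at 0.754 times the control. The higher family genes were HSPA6, HSPA7, HSPA1A and HSPA1B in both comparisons with the control. HSPA1A was at 1.22 times the control in ADAR2 and 1.26 times in ADAR2+SRSF9, and HSPA1B at 1.21 and 1.25 times. With the GC trend removed, HSPA1A was at 1.107 and HSPA1B at 1.101 times the control in ADAR2.

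Of the 22 other HSF1-inducible genes, a list that overlaps the HSP70 family, HSPA6 was the 1 gene at 1.5-fold in each comparison with the control, and 0 were in ADAR2+SRSF9 over ADAR2. Their median was 0.03 in ADAR2 over control and -0.001 in ADAR2+SRSF9 over ADAR2. Lowest there was CRYAB, a lens and muscle small heat shock protein, at -0.24, with 123 reads against 204. Its ratio of 0.845 had an interval of 0.670 to 1.06, which held 1. Highest was CACYBP, a chaperone-like adaptor of ubiquitin ligases, at 0.08. HSPA8, the constitutive HSP70, was at -0.14 in ADAR2 over control. HSPA6 was therefore not matched in size by any measured gene of this list or by any of the 10.

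Among 19 measured partners and regulators of HSF1, 0 were at 1.5-fold in any comparison, with medians of -0.06, 0.03 and -0.02 in ADAR2 over control, ADAR2+SRSF9 over ADAR2 and ADAR2+SRSF9 over control. FBXW7, the substrate receptor of a ubiquitin ligase that acts on HSF1, was lowest in both comparisons with the control, at log2 ratios of -0.41 in ADAR2 and -0.42 in ADAR2+SRSF9. HSF4, a related factor of the lens, was highest in ADAR2 over control at 0.29. HSF2BP, a partner of HSF2 with 170, 189 and 201 reads in ADAR2+SRSF9, ADAR2 and control, was highest in the other comparisons, at 0.33 and 0.45. EP300, an acetyltransferase of HSF1, was lowest in ADAR2+SRSF9 over ADAR2 at -0.11.

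The 28 HSP90 paralogs and co-chaperones also had 0 genes at 1.5-fold, with medians of 0.03, 0.003 and 0.04. The extremes against the control were STUB1, the ubiquitin ligase CHIP that tags chaperone clients, at 0.36 in ADAR2 and 0.37 in ADAR2+SRSF9, and FNIP1, a large co-chaperone that slows the HSP90 cycle, at -0.34 and -0.47. FKBP5, a glucocorticoid-induced immunophilin, was highest in ADAR2+SRSF9 over ADAR2 at 0.13, and FNIP1 lowest at -0.13. STUB1 has 65.03% GC and FNIP1 38.9%.

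Of 37 measured J-domain proteins DNAJC30, a mitochondrial member, was the 1 gene at 1.5-fold in ADAR2 over control, at 1.57 times (1.40 to 1.77) with 678 reads in ADAR2 against 496 in control. Removal of the GC trend left 1.49 times and ended that call, and a filter of 10 CPM leaves the gene out. DNAJC25 was lowest there at a log2 ratio of -0.46. None, 0 of 37, was at 1.5-fold in ADAR2+SRSF9 over ADAR2, where DNAJA4 was lowest at -0.53 with 76 reads against 154, and DNAJC17 highest at 0.12. Small heat shock proteins other than HSPB1 were mostly not measured: 3 of 10 reached 1 CPM, HSPB8, HSPB11 and CRYAB, and 0 were at 1.5-fold. HSPB8, which works with BAG3, was at 0.42 in ADAR2 over control, from 288 reads in ADAR2 against 247 in control.

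In the remaining lists 0 genes were at 1.5-fold in any comparison. The 13 BAG proteins and HSP70 exchange factors had medians of -0.04, 0.02 and 0.01, with the exchange factor HSPBP1 highest at 0.27 and BAG4 lowest at -0.14 in ADAR2 over control. The 14 measured genes of the cytosolic chaperonin and prefoldin had -0.07, 0.01 and -0.01, with the prefoldin subunits PFDN2 at 0.21 and PFDN4 at -0.22. The 18 genes of mitochondrial protein folding had 0.04, 0.03 and 0.05, with the disaggregase CLPB at 0.24 and the protease YME1L1 at -0.24.

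**Figure D4:**
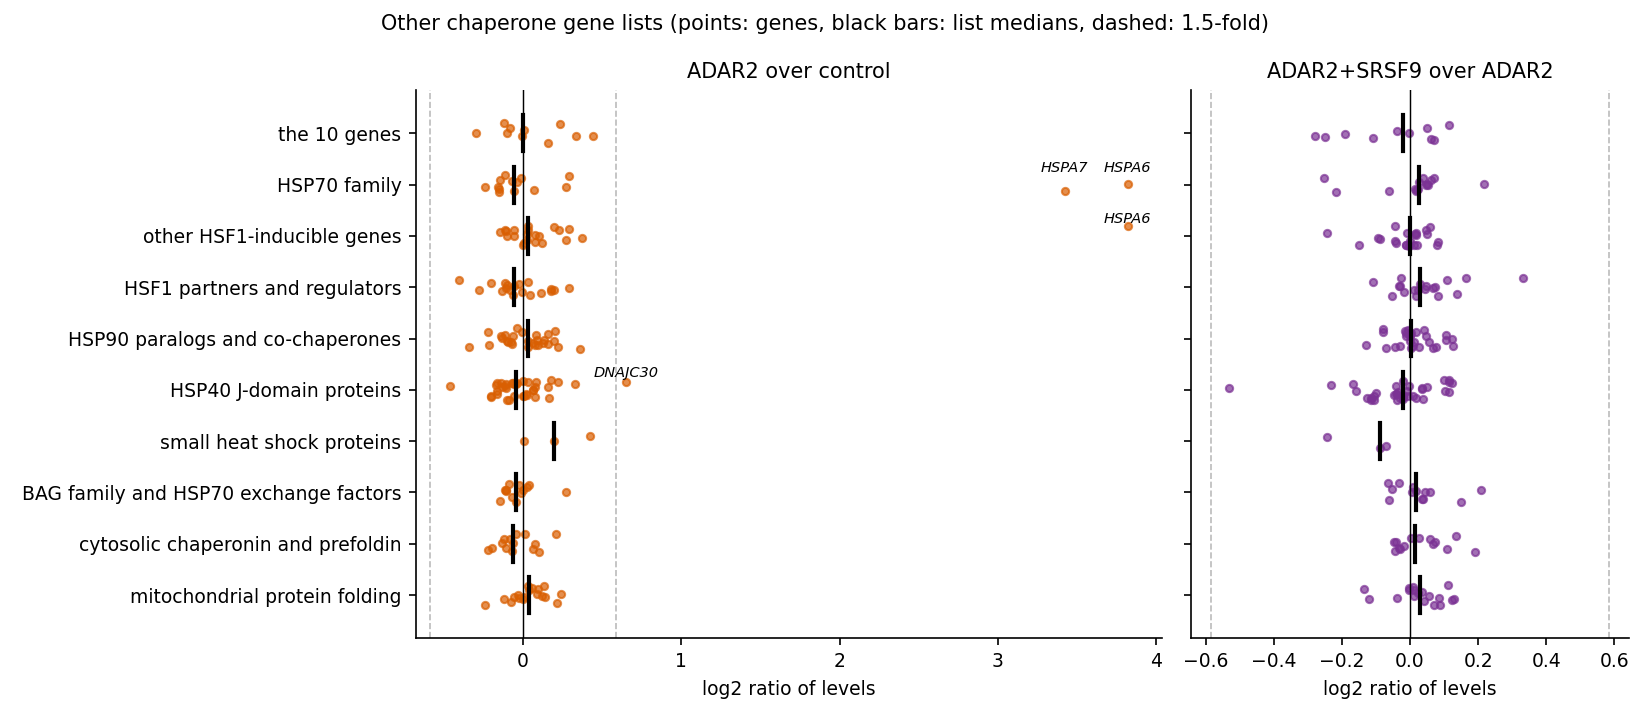
Log2 ratios of the measured genes (points) of each chaperone list, with list medians (black bars), in ADAR2 over control and ADAR2+SRSF9 over ADAR2. Some genes stand in more than 1 list. HSPA6 at 3.82 and HSPA7 at 3.42 are far to the right in ADAR2 over control, and apart from DNAJC30 all other points lie between the dashed 1.5-fold lines.

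Several of the 10 have processed pseudogenes, intronless copies whose rows can take reads of the parent transcript. The table held 25 rows named as pseudogenes of HSP90AA1, HSP90AB1, HSPD1, HSPB1 and DNAJB1, and 9 of them reached 1 CPM. In ADAR2+SRSF9 over ADAR2 all 9 had intervals below 1, at 0.643 to 0.834 times, as did 23% of the 16072 genes. Of their parents, HSP90AA1, HSP90AB1 and HSPD1 were at 1.03 to 1.05 times, and HSPB1, parent of HSPB1P1, was itself lower at 0.928 times (0.905 to 0.951). In ADAR2+SRSF9 over control 8 of the 9 had intervals below 1, beside 35.3% of all genes. The 4 HSP90AB1 rows summed to 1941 reads in ADAR2+SRSF9, 4105 in ADAR2 and 4308 in control. They were at 0.662 times the ADAR2 level (0.627 to 0.699), led by HSP90AB3P at 0.650 (0.610 to 0.692). The 15 HSPD1 rows summed to 7528, 12970 and 15101 reads and were at 0.813 times (0.790 to 0.836), most of them from HSPD1P1.

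As a share of the reads of the parent, HSPD1 pseudogenes held 5.60% in ADAR2+SRSF9, 7.23% in ADAR2 and 6.83% in control. HSP90AB1 pseudogenes held 0.992%, 1.55% and 1.33%, and HSP90AA1 pseudogenes 0.391%, 0.527% and 0.469%. In ADAR2 over control 2 of the 9 rows had intervals that excluded 1, both above it, HSP90AB3P at 1.11 times and HSPB1P1 at 1.66 times (1.36 to 2.04), where 31.5% of all genes had intervals above 1. Reads of a pseudogene and of its parent cannot be separated with certainty in these counts.

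**Figure D5:**
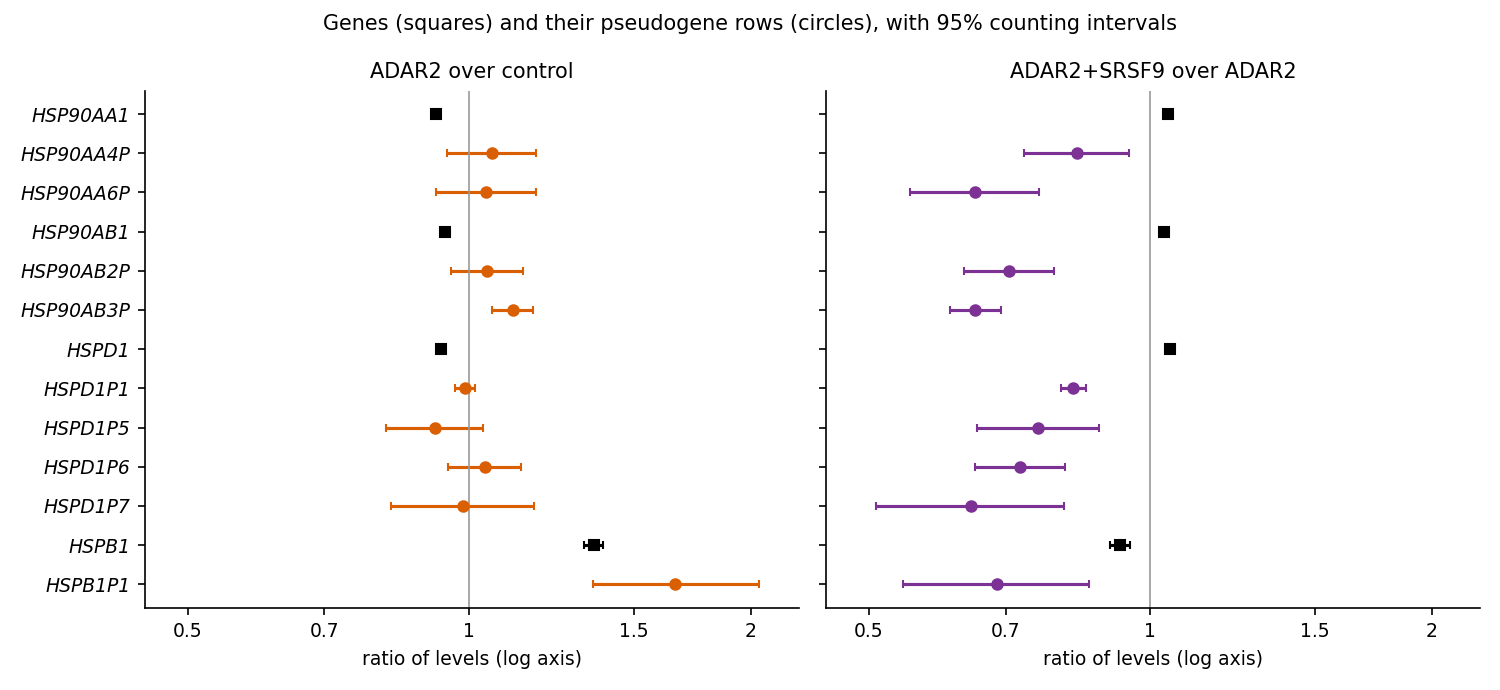
Ratio of levels (log axis) with 95% counting intervals for 4 of the genes (squares) and for their pseudogene rows with 1 or more CPM (circles), 1 library per group. In ADAR2+SRSF9 over ADAR2 the 9 circles lie at 0.643 to 0.834, left of the line, while the squares of HSP90AA1, HSP90AB1 and HSPD1 lie at 1.03 to 1.05 and that of HSPB1 at 0.928.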

How the data were processed

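Whole-number counts of reads per gene were deposited by the authors, 1 column for each library, without normalisation. RNA was taken up in Trizol and a directional NEBNext Ultra kit was used, per the labels' protocols. The notes of the submitters name hg19, STAR, Picard, GATK and SAMtools, without roles. For the counter and its use of strand, the sources used here give nothing. The genes and lists were chosen with earlier results of these data known.

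Levels are CPM after TMM scaling (edgeR 4.0.16 under R 4.3.3), and log2 ratios have 0.5 added as a prior count. Exact Clopper-Pearson bounds (95%) on how the reads of a gene divide between both libraries gave the intervals (scipy 1.17.1, numpy 2.4.6, pandas 2.3.3, Python 3.11.15; figures by matplotlib 3.10.9). A gene was called when its mean CPM was 1 or more, its ratio 1.5-fold (or 1.2-fold) or more, and its interval excluded 1. Lengths, gene types, GC content and exon overlaps came from GENCODE v29 (GRCh38), not the build of the counts, which held 51802 of 57268 identifiers. The GC trend was the median log2 ratio in 50 bins of GC content, smoothed over 5, among protein-coding genes with 10 or more CPM. From each list, genes at 1.5-fold and the highest and lowest of a comparison could be named. The pseudogene rows at 1 CPM or more and the 5 genes nearest to HSPB1 were named too. HSPA1A and HSPA1B were named after their values were seen. The calculation was tested on simulated counts. Alternatives were DESeq2 1.42.0 size factors, library totals, upper-quartile factors, library sizes without abundant rows, other filters, a prior count of 5, other folds and GC trend removal.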

Additional observations from a re-analysis of the deposited data

How the results depend on the processing

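No paired analysis was possible because each group has 1 library. The count of members at 1.5-fold was 0 in each comparison under DESeq2 size factors, upper-quartile factors and a prior count of 5. The same held with GC trend removal and with library sizes without mitochondrial genes, ADARB1, SRSF9, HBB and HBD. Both other filters on low counts and a 2-fold threshold also gave 0, but could not have given more. All 10 had a mean level above 10 CPM, and a gene short of 1.5-fold is short of 2-fold. With library totals the count was 1 (DNAJB4) in ADAR2+SRSF9 over control. At 1.2-fold it was 3 in ADAR2 over control, 1 in ADAR2+SRSF9 over ADAR2 and 2 in ADAR2+SRSF9 over control. The median log2 ratio of the 10 in ADAR2+SRSF9 over ADAR2 was -0.066 with library totals and -0.057 with the GC trend removed, and the mean was -0.057. With library totals the median was -0.065 in ADAR2+SRSF9 over control, and the mean was 0.057 in ADAR2 over control. The cause was not tested. Of the other values 400 stayed and 86 moved. The 400 include ratios of the 10 under the other filters, which could not change them. A turned sign was labelled only for called members, and 0 of the 10 were called, so that label could not arise. Ratios short of 1.5-fold did turn sign: HSPE1 and HSPH1 in ADAR2 over control with the scaling of libraries and with the GC trend removed, HSPH1 in ADAR2+SRSF9 over ADAR2 with the GC trend removed, and HSF1, HSP90AA1, HSPD1 and HSPH1 in ADAR2+SRSF9 over control with the GC trend removed. Levels per length were also computed with the longest transcript, an alternative chosen after the data were seen. Depth gave narrow counting intervals, and the spread between cultures cannot be estimated from 1 library per group.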

Other observations

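The reads of the mitochondrial lid protein and of its neighbour form a case of overlapping annotation. The readthrough gene HSPE1-MOB4 was listed with 0 reads in each library, while MOB4, the kinase adaptor gene downstream, had 1610 reads in ADAR2+SRSF9, 2260 in ADAR2 and 2689 in control, and HSPE1 had 5970, 7728 and 8853. Within each library, the ratio of BAG3 to HSPB1 reads was 0.347 in ADAR2+SRSF9 (0.334 to 0.360), 0.367 in ADAR2 (0.356 to 0.378) and 0.447 in control (0.434 to 0.461). The ratio of HSPB1 to HSP90AB1 reads was 0.0541 in ADAR2+SRSF9 (0.0530 to 0.0552), 0.0603 in ADAR2 (0.0593 to 0.0613) and 0.0418 in control (0.0411 to 0.0426). Such ratios are free of library scaling but not of the GC trend. GC content was 64.3% for HSPB1, 56.9% for BAG3 and 48.1% for HSP90AB1. With the trend removed, HSPB1 was at 1.06, BAG3 at 0.892 and HSP90AB1 at 0.991 times the control in ADAR2+SRSF9. In ADAR2 over control HSPB1 was then at 1.197, BAG3 at 1.03 and HSP90AB1 at 0.960 times. Among HSF1-inducible genes outside the 10, ZFAND2A, an arsenite-inducible proteasome adaptor, was at 11.4 CPM in ADAR2+SRSF9, 11.7 CPM in ADAR2 and 9.04 CPM in control, 1.30 times the control in ADAR2 (1.21 to 1.39). It was named after its values were seen.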
